A study of Mus musculus with 6 samples.

Results

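The genes described here are Alkal2, a secreted ligand of the receptor tyrosine kinase ALK; the receptors Alk and Ltk; the heparin-binding growth factors pleiotrophin (Ptn) and midkine (Mdk); their receptor phosphatase Ptprz1; and the 4 syndecans Sdc1 to Sdc4. They are 10 of the 36528 genes in the deposited tables, matched by NCBI gene identifier, and all 10 passed the filter on low counts. Alkal2 and Sdc1 were selected on their higher counts in the CreER-positive mice, and the others were chosen by membership of the same ligand, receptor or proteoglycan families. The contrast between the groups is therefore a description for all 10, and no p-value is given for them.

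RNA of whole lumbar dorsal root ganglia, the clusters of sensory neurons and their support cells beside the spinal cord, was sequenced from female mice aged 12 to 18 weeks. Every mouse was homozygous for a loxP-flanked Scn9a gene, which encodes the sodium channel Nav1.7. Controls lacked the pCAAG.Cre.ER transgene (n = 3) and littermates in the other group carried it (CreER-positive, n = 3). The series title calls the knockout global, and no tamoxifen schedule is given in the sources used here. Each library held 6 ganglia (L4 to L6) of 1 mouse, so neurons, glia, fibroblasts and vessels were measured together, and fewer cells of a type cannot be told apart from less RNA per cell.

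Total counts ran from 40237131 to 63332040 per library. Scn9a had 557 to 635 CPM (counts scaled by library size with TMM factors) in controls and 565 to 620 in CreER-positive libraries; how reads over the floxed exons were counted is not known, so the deletion is unchecked. Pan-neuronal markers summed to 8017 to 9136 CPM in controls and 7883 to 10131 in CreER-positive libraries, as the tissue label calls for. Muscle markers summed to 54.3 CPM in control replicate 2 against at most 8.89 elsewhere, and macrophage markers to 91.4 CPM in CreER-positive replicate 3 against at most 64.1. Apart from the estimates of plasma and B cell markers, results that rest on these libraries are given with and without them.

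ALK and LTK are closely related receptor kinases of the insulin receptor superfamily, activated when the secreted proteins ALKAL1 or ALKAL2 join receptors into dimers, and they signal through the RAS-ERK, PI3K and STAT3 pathways. Pleiotrophin and midkine bind the sugar chains of proteoglycans and inhibit the phosphatase PTPRZ1; whether they act on ALK directly has been debated. Syndecans are transmembrane proteins that carry heparan sulfate chains and act as co-receptors for such heparin-binding factors.

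The sequences upstream of Alkal2 and Sdc1 are shown because these are the genes whose libraries separated upward between the groups. They come from RefSeq on GRCm38.p6, plus strand, chr12:30884074-30884321 and chr12:8771146-8771322, and end before the first annotated transcribed base. Capitals mark matches on either strand to the GC box GGGCGG or the CCAAT box CCAAT.
Alkal2: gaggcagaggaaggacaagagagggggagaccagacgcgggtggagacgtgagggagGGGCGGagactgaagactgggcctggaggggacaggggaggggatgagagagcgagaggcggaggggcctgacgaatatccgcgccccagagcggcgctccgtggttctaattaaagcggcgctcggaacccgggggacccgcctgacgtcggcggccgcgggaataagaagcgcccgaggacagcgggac
Sdc1: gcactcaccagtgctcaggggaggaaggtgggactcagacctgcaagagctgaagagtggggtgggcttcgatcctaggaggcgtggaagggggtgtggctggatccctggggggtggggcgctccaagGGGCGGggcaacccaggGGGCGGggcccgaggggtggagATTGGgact
GC boxes occur in both stretches and a CCAAT box in that of Sdc1. In the 250 bases upstream of the RefSeq start, GGGCGG occurred once or more in 32.7% of all 32851 promoters and CCAAT in 33.9%. The AP-1 letters TGANTCA (6.75% of promoters), the CRE letters TGACGTCA (1.55%), the E-box CACGTG (6.02%) and the TATA letters TATAAA (12.4%) were not found in either window. Of the 10 genes, 8 matched a RefSeq promoter, and none of these 8 windows held the AP-1, CRE, E-box or TATA letters. A match describes the letters alone.

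The ligand Alkal2 had 16.8, 16.2 and 16.8 CPM in control replicates 1 to 3 and 30.3, 37.3 and 33.8 CPM in CreER-positive replicates 1 to 3. Every CreER-positive library lay above every control, and the lowest of them was far outside the narrow control range. The means were 16.6 ± 0.330 and 33.8 ± 3.50 CPM (SD, n = 3), a log2 fold change of 1.03 ± 0.08 (SE), or 2.04-fold. Among the 10 genes this was the largest estimate in size. It ranged from 0.95 to 1.11 when each library was left out in turn and was 1.01 when control replicate 2 and CreER-positive replicate 3 were both absent. Markers of neuron subtypes moved between the same groups: 4 of 5 markers of C-fibre low-threshold mechanoreceptors fell, against 0.563% of the 22043 genes tested, with sums of 288 to 291 CPM in controls and 175 to 219 CPM in CreER-positive libraries. The 6 peptidergic nociceptor markers summed to 2201 to 2543 CPM and 2649 to 2848 CPM, with 0 calls by edgeR or limma-voom, 1 by DESeq2 and 4 higher at an unadjusted edgeR p under 0.05 (over all 22043 genes tested, 1113 were higher and 1217 lower at that p, 10.6% together). The 6 non-peptidergic nociceptor markers summed to 1612 to 1627 CPM in controls and 1371 to 1534 CPM in CreER-positive libraries. Of these 6, 1 was called, lower, by edgeR and by limma-voom, and 2 by DESeq2. Over all 22043 genes tested, edgeR called 160, limma-voom 159 and DESeq2 425. Estimates were above 0 for 3 of the 6, with a median of -0.04. At an unadjusted edgeR p under 0.05, 1 was higher and 2 lower. The part of these neuron subtypes in the Alkal2 and Sdc1 values was not tested.

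Alkal2 (NCBI gene 100294583) lies on the plus strand of chromosome 12 at 30884324 to 30893856, and its last 531 bases overlap the end of Acp1 (30893326 to 30911619), a phosphatase gene on the opposite strand. Of the 1460 different 50-base words in annotated Alkal2 transcripts, 480 (32.9%) also occur, on either strand, in Acp1 transcripts. The counting strand is not known, so reads of this stretch cannot be assigned to either gene. Acp1 itself had 26.0, 25.02 and 25.7 CPM in controls and 26.7, 29.5 and 29.4 in CreER-positive libraries, a log2 fold change of 0.16 ± 0.06 that did not pass (edgeR adjusted p = 0.394). The ratio of Alkal2 to Acp1 CPM was 0.644 to 0.653 in controls and 1.14 to 1.26 in CreER-positive libraries. This ratio holds the Alkal2 values on which the gene was selected and is a description only.

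Alkal1, which encodes the other ALK ligand, stayed near 1 CPM in every library, from 0.921 to 1.25 in controls and from 1.09 to 1.12 in CreER-positive mice. On the log2 scale the difference was 0.02 ± 0.17 (95% interval -0.36 to 0.40, edgeR adjusted p = 0.984).

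**Figure D1:**
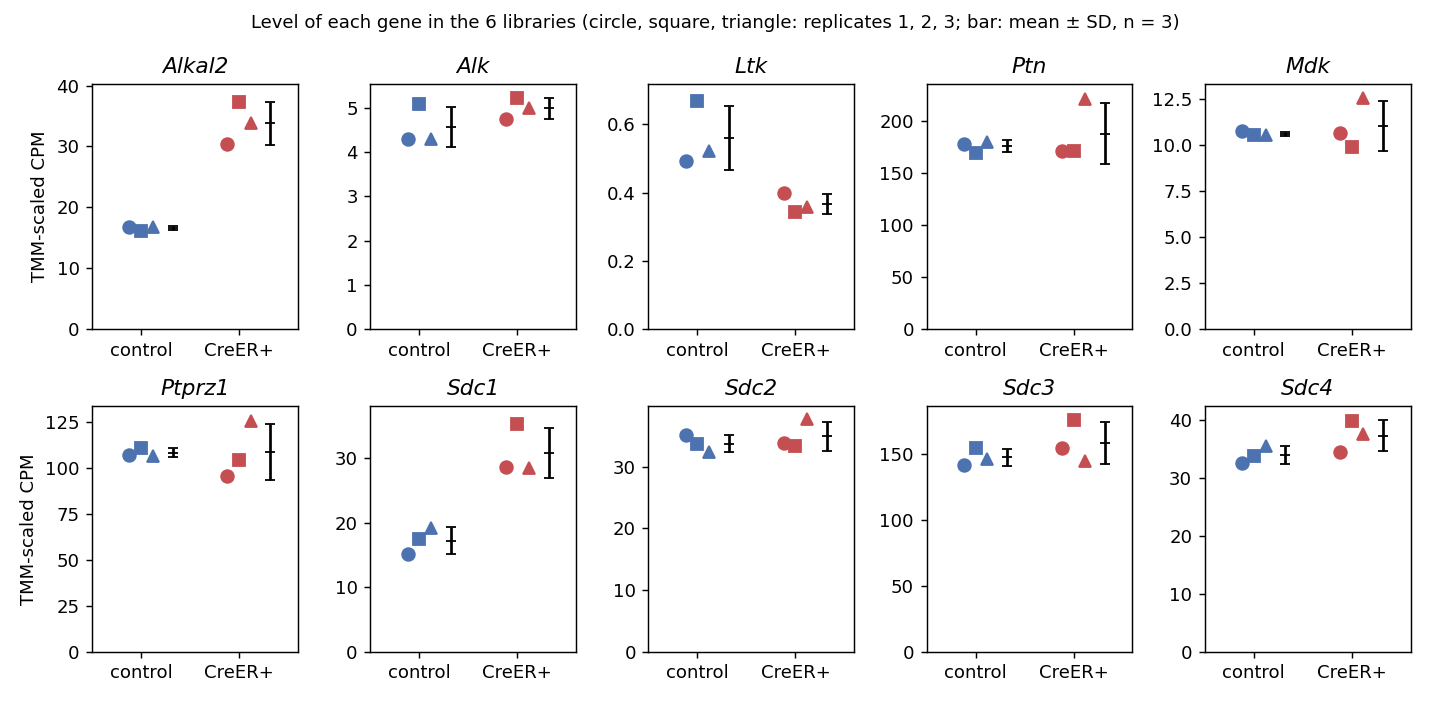
TMM-scaled CPM of the 10 genes (vertical axes from 0, a scale of its own for each gene) in control (blue) and CreER-positive (red) libraries; circles, squares and triangles are replicates 1, 2 and 3, and bars give the mean ± SD (n = 3). The groups are apart upward for Alkal2 (at most 16.8 against at least 30.3) and Sdc1 (at most 19.1 against at least 28.4) and downward for Ltk, and overlap for the other 7 genes.

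The receptors were scarce in these ganglia. Alk (chromosome 17, 71868988 to 72604702), the main receptor of ALKAL2 in neurons, had 4.31, 5.09 and 4.30 CPM in controls and 4.75, 5.22 and 4.999 in CreER-positive libraries. These ranges overlapped, with means of 4.57 ± 0.455 and 4.99 ± 0.236 CPM (SD, n = 3) and a log2 fold change of 0.13 ± 0.11. Alk is the longest gene of the set, and annotated exons make up about 1% of its deposited width.

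Ltk (chromosome 2, 119751326 to 119760431), the sister receptor, was near the limit of detection, with counts of 20, 37 and 33 in controls and 24, 21 and 19 in CreER-positive libraries. Scaled, these were 0.492, 0.668 and 0.522 CPM against 0.400, 0.342 and 0.357 CPM. All CreER-positive values lay below all controls, and the log2 fold change was -0.62 ± 0.23. Without control replicate 2 and CreER-positive replicate 3 it was -0.46.

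Ptn (chromosome 6, 36714924 to 36810179), pleiotrophin, a growth factor of glia and developing neurons, had 178, 169 and 179 CPM in controls and 171, 171 and 221 in CreER-positive libraries. CreER-positive replicate 3 stood above the controls, the other CreER-positive libraries lay within them, and the log2 fold change was 0.10 ± 0.10. Without that library it was -0.04.

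Mdk (chromosome 2, 91929805 to 91932297), the paralogue of Ptn, had 10.8, 10.5 and 10.5 CPM in controls and 10.7, 9.88 and 12.6 in CreER-positive libraries. Controls agreed to within a coefficient of variation of 1.11%, and the CreER-positive libraries lay on both sides of them (log2 fold change 0.06 ± 0.09). The ratio of Ptn to Mdk CPM stayed between 16.0 and 17.6 in all 6 libraries. Mdk overlaps the muscarinic receptor gene Chrm4 by 31 bases. Chrm4 had 7.38, 6.93 and 7.73 CPM in controls and 6.503, 5.24 and 4.66 in CreER-positive libraries, a log2 fold change of -0.42 ± 0.13 that did not pass (edgeR adjusted p = 0.240).

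Ptprz1 (chromosome 6, 22875315 to 23052916), the receptor phosphatase bound by both growth factors, had 107, 111 and 106 CPM in controls and 95.7, 104 and 126 in CreER-positive libraries. The CreER-positive values spanned the control range on both sides, with a log2 fold change of 0.01 ± 0.09. It was -0.11 without CreER-positive replicate 3 and -0.01 when libraries were scaled by total counts alone, and stayed near 0 with either sign in other settings. A noncoding gene within it, Gm30493, had at most 0.0976 CPM in any library.

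Ptn, Mdk, Ptprz1 and Sdc2 each reached their highest value in CreER-positive replicate 3. In that library the summed level of the 6 satellite glia markers was 2311 CPM, against 1639 to 1795 CPM in controls and 1760 to 1923 CPM in the other CreER-positive libraries. The 8 fibroblast and perineurium markers summed to 1679 CPM there, against 978 to 1257 CPM in controls and 1065 to 1117 in the other CreER-positive libraries. Of these 6 and 8 markers, 0 passed over all genes by edgeR, DESeq2 or limma-voom. In each list 1 had an unadjusted edgeR p under 0.05, against 10.6% of all genes tested. Endothelium and macrophage marker sums were also highest in CreER-positive replicate 3, at 140 and 91.4 CPM. In the other libraries they were at most 108 and 64.1 CPM. The part of these cell types in the values of Ptn, Mdk, Ptprz1 and Sdc2 was not tested. Alkal2 and Sdc1 did not peak in that library but in CreER-positive replicate 2. Pan-neuronal (10131 CPM), A-fibre neuron (1908 CPM) and Schwann cell (4505 CPM) marker sums were also highest in replicate 2. Sums of peptidergic, non-peptidergic and C-fibre low-threshold mechanoreceptor markers were highest in other libraries. The part of these cell types in the Alkal2 and Sdc1 values was not tested.

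Among the syndecans, Sdc1 alone had libraries of the groups that did not overlap, as had 15.9% of all genes tested. Because Sdc1 was selected on its higher counts, nothing is read from this. Sdc1 (NCBI gene 20969, chromosome 12, 8771396 to 8793716), a syndecan best known from epithelia and plasma cells, had 15.1, 17.5 and 19.1 CPM in controls and 28.6, 35.2 and 28.4 CPM in CreER-positive libraries. The lowest CreER-positive library was thus well above the highest control. The means were 17.2 ± 2.04 and 30.7 ± 3.89 CPM (SD, n = 3), a log2 fold change of 0.83 ± 0.11, or 1.78-fold. Leaving out each library in turn gave 0.72 to 0.92, and the fit with neither control replicate 2 nor CreER-positive replicate 3 gave 0.90.

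Markers of the cell types for which Sdc1 is known were measured beside it. Of 8 plasma and B cell markers, 7 were tested, and their summed level was 7.36, 17.2 and 5.50 CPM in control replicates 1 to 3 and 5.04 to 7.89 CPM in CreER-positive libraries. Control replicate 2, the library with muscle markers, alone sets the upper end of this sum, and without it the groups' ranges of the sum are alike. Marker by marker, with control replicate 2 included, 0 of the 7 estimates were above 0, with a median log2 fold change of -0.62. The estimates without that library are not given. Groups did not overlap for 2 of the 7, against 15.9% of genes tested. The J chain gene Jchain had 4.11, 12.7 and 2.06 CPM in controls and 2.45, 2.33 and 4.13 CPM in CreER-positive libraries. The part of these cells in the Sdc1 values was not tested. None of the 7 passed by edgeR, DESeq2 or limma-voom. An unadjusted edgeR p under 0.05 was found for 2, both lower, against 10.6% of all genes tested in either direction. Of 8 epithelial and mesothelial markers, 4 were too low to test, among them Krt8 and Krt18, with at most 0.0474 and 0.0188 CPM in any library. Lrrn4, a mesothelial marker, fell from 3.62 ± 0.275 to 2.04 ± 0.247 CPM (SD, n = 3; log2 fold change -0.83, edgeR adjusted p = 0.0293); the call was kept in 2 of 6 fits that left out a library (adjusted p up to 0.146). Cdh1, E-cadherin, which ganglia also express, held most of that list's level at 138 to 164 CPM.

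Sdc2 (chromosome 15, 32920723 to 33034721), a syndecan of fibroblasts and dendritic spines, had 35.1, 33.6 and 32.4 CPM in controls and 33.8, 33.3 and 37.7 in CreER-positive libraries. These values were interleaved (log2 fold change 0.05 ± 0.06). Sdc3 (chromosome 4, 130792537 to 130826318), the syndecan typical of neurons, had 142, 154 and 146 CPM in controls and 154, 175 and 145 in CreER-positive libraries, and 1 of these, replicate 2, stood above the rest (0.10 ± 0.08). Sdc4 (chromosome 2, 164424247 to 164443188), a component of focal adhesions, had 32.5, 33.8 and 35.5 CPM in controls and 34.4, 39.8 and 37.5 in CreER-positive libraries. The CreER-positive values were mostly above but overlapped the controls (0.13 ± 0.07). The 95% intervals of the log2 fold change were -0.09 to 0.20 for Sdc2, -0.07 to 0.27 for Sdc3 and -0.02 to 0.29 for Sdc4.

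**Figure D2:**
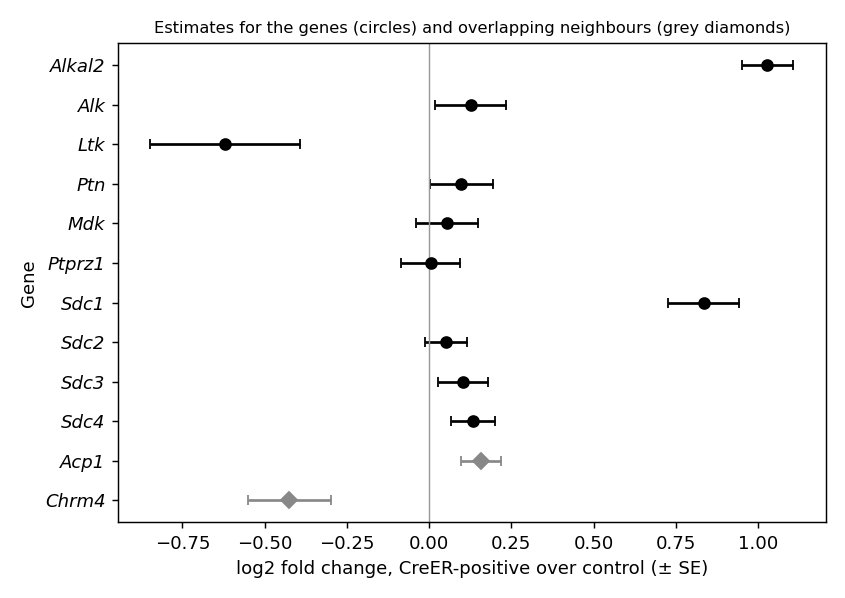
Log2 fold change of CreER-positive over control ± SE (horizontal axis) from edgeR for the 10 genes (circles) and 2 overlapping neighbours (grey diamonds). Alkal2 (1.03) and Sdc1 (0.83) lie to the right, Ltk (-0.62) to the left with a wide error, and the other 7 genes lie between 0.01 and 0.13.

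Because a read can only be assigned to a gene where its sequence is unlike the others, the coding ends of the 4 syndecans, which encode the end of the cytoplasmic tail, are shown as an example of how the genes differ. They are the last 60 coding bases, stop codon included, from GENCODE M21 on GRCm38: Sdc1 chr12:8791748-8791807 (plus strand), Sdc2 chr15:33032481-33032540 (plus), Sdc3 chr4:130822750-130822809 (plus) and Sdc4 chr2:164426086-164426145 (minus). Capitals mark bases that are the same in all 4 genes when aligned at the stop codon.
Sdc1: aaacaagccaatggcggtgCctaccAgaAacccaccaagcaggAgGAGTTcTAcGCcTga
Sdc2: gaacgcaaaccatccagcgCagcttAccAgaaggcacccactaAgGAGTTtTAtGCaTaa
Sdc3: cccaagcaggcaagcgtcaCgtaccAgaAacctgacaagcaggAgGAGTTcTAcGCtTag
Sdc4: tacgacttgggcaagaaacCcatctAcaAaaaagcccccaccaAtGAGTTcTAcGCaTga
In this stretch 14 of 60 bases (23.3%) were common to all 4 genes, most of them in the last codons. Sdc1 was closest to Sdc3 with 38 of 60 identical bases, and Sdc2 to Sdc4 with 31 of 60. No 50-base word of an Sdc1, Sdc2, Sdc3 or Sdc4 transcript occurred in a transcript of another syndecan. Words shared with genes outside the family made up 0.782% of Sdc1, 1.98% of Sdc2, 5.36% of Sdc3 and 0% of Sdc4 words; for Sdc3 the partner was the antisense gene Gm26716, and for Sdc1 the pseudogenes Gm14724 and Gm16407.

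The Sdc1 values can also be read as a share of the family, which restates the difference on which Sdc1 was selected. On the deposited RPKM (reads scaled by gene width and library total), Sdc1 held 9.79%, 10.5% and 11.7% of the summed syndecan level in controls and 16.1%, 17.2% and 16.2% in CreER-positive libraries. Per kilobase of annotated exons, the Sdc1 share was 7.86% to 9.57% in controls and 13.1% to 14.5% in CreER-positive libraries. Sdc3 held the largest share in every library, 54.4% to 61.5% on RPKM and 42.3% to 48.5% per exon kilobase.

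**Figure D3:**
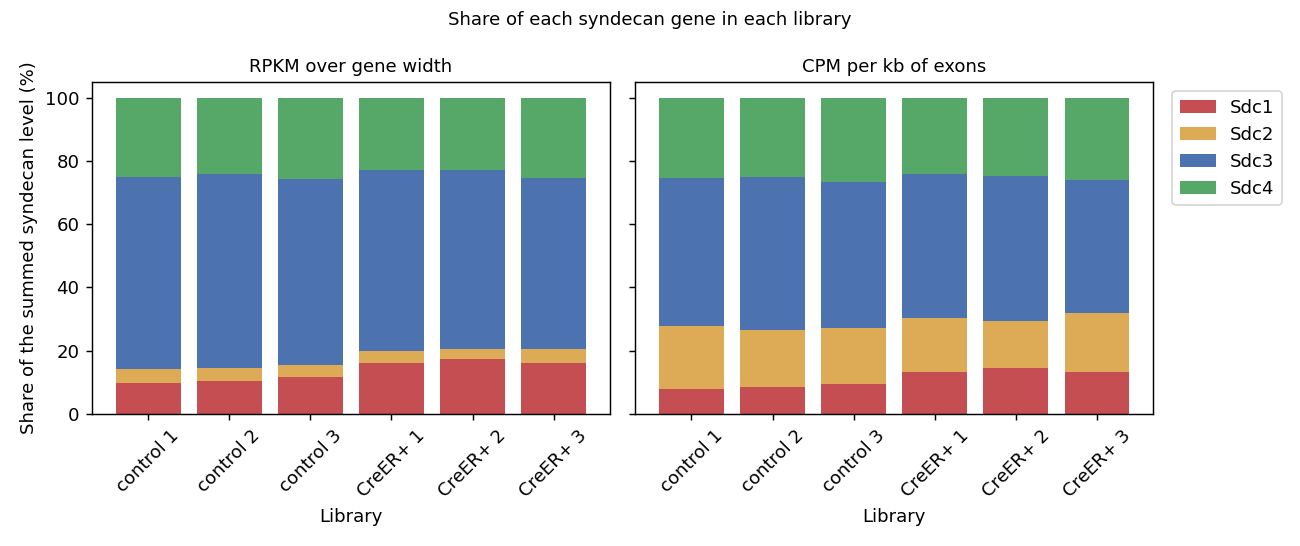
Share of the summed syndecan level (vertical axis, %) held by each of the 4 genes in each of the 6 libraries, on RPKM over the gene width (left) and CPM per kb of exons (right). The Sdc1 segment is 9.79% to 11.7% in controls and 16.1% to 17.2% in CreER-positive libraries on the left, and Sdc3 is the largest segment in all 6 libraries.

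Levels of different genes can be compared only per length, and the order depended on which length was used. On RPKM over the deposited width, which takes in introns, the order of mean levels over the 6 libraries was Sdc3 (4.59), Mdk (4.42), Alkal2 (2.68), Ptn (1.92), Sdc4 (1.91), Sdc1 (1.09), Ptprz1 (0.622), Sdc2 (0.306), Ltk (0.0518) and Alk (0.00659). Neighbours whose order changed from library to library were Sdc3 and Mdk, Alkal2 and Ptn, and Ptn and Sdc4. The ranges of Sdc1 and Ptprz1 overlapped, but Sdc1 was above Ptprz1 in 6 of 6 libraries. Per kilobase of annotated exons, Ptn came first with 52.9 CPM per kb, above Sdc3 with 25.5, in all 6 libraries without overlap. Alkal2 (16.7), Sdc4 (14.0), Sdc2 (9.73), Mdk (8.18), Ptprz1 (7.61) and Sdc1 (6.30) followed. Alk (0.616) and Ltk (0.129) were last on this scale too, in the opposite order to that on RPKM. Neighbours with overlapping ranges on the exon scale were Sdc3 and Alkal2, Alkal2 and Sdc4, Sdc2 and Mdk, Mdk and Ptprz1, and Ptprz1 and Sdc1. Alkal2 had rank 3 on both scales by the mean over all 6 libraries, a mean over groups that differ. On RPKM in controls it had 1.80, 1.75 and 1.79, each below Ptn in the same library (1.89, 1.80 and 1.89). It was above Sdc4 per exon kilobase in the 3 CreER-positive libraries and below it in the 3 controls.

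**Figure D4:**
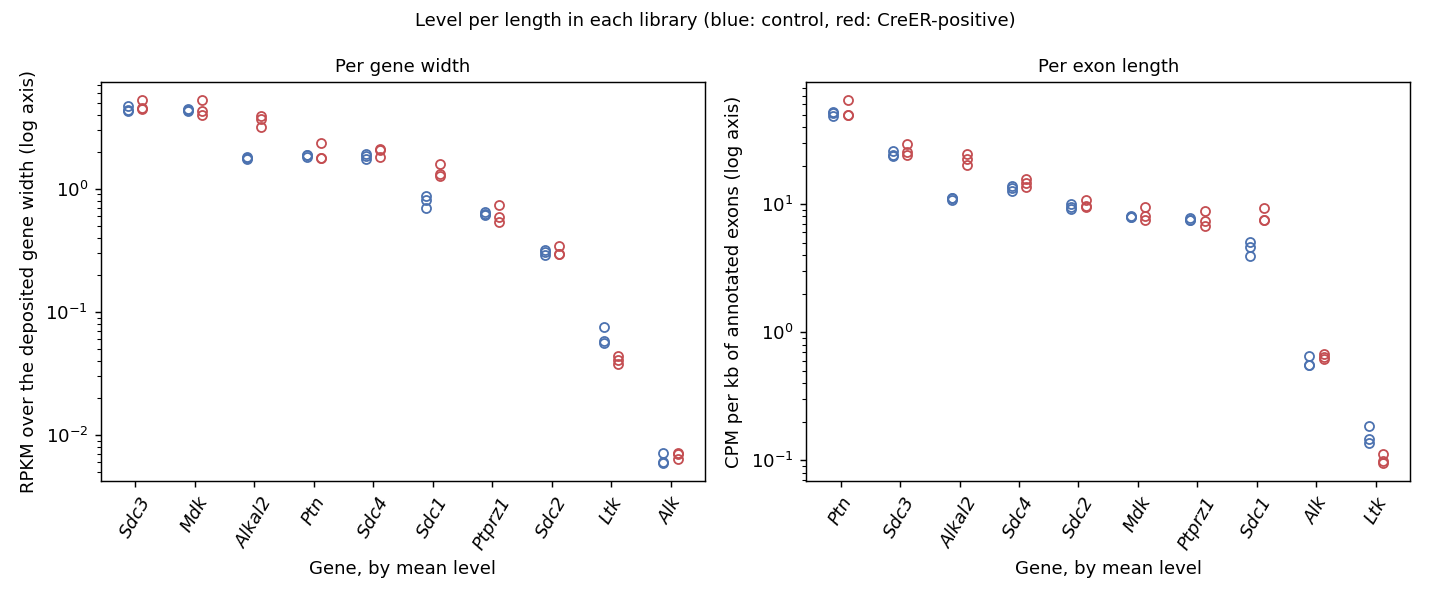
Level per length of the 10 genes on log axes in control (blue) and CreER-positive (red) libraries, as RPKM over the deposited gene width (left) and CPM per kb of exons (right), ordered by the mean over the 6 libraries. Ptn moves from rank 4 (1.92 RPKM) to rank 1 (52.9 CPM per kb), and the receptors Alk and Ltk are the lowest on both.

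In all, 2 of the 10 genes, Alkal2 and Sdc1, passed edgeR's quasi-likelihood test over all genes, both higher, against 0.726% of the 22043 genes tested (0.163% higher and 0.563% lower). Groups did not overlap for 3 of the 10, the same 2 and Ltk, against 15.9% of genes tested (6.63% with CreER-positive libraries higher). The 2 genes were chosen for this, so nothing is read from these counts. The number that passed was 2 under 13 of 14 alternative settings; without control replicate 2 it was 1, Alkal2, and the Sdc1 log2 fold change was then 0.85. The median log2 fold change of the 10 genes was 0.10, against 0.00 over all genes tested, and 9 of 10 estimates, those of the 2 selected genes among them, were above 0, against 11199 of 22043 over all genes.

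The genes whose levels ran most like those of Alkal2 and Sdc1 over the 6 libraries were sought among the 16303 genes averaging 1 CPM or more, by Pearson's r of log2 CPM. For Alkal2 they were Tafa3 (0.996), Tfeb (0.995), Diaph3 (0.994), Zfp580 (0.992) and Pofut2 (0.992). For Sdc1 they were Bcat2 (0.999), Hs3st6 (0.996), Nkain1 (0.993), Lmo1 (0.992) and Rasd2 (0.992). Alkal2 and Sdc1 had an r of 0.96 with each other, and Ptn and Mdk one of 0.93. The 6 points come from 2 groups, so any gene that differs between the groups scores highly; they also share libraries and depth. Among these, Diaph3, a formin gene (15.3, 14.8 and 15.6 CPM in controls, 23.6, 24.9 and 24.3 in CreER-positive libraries), had a log2 fold change of 0.67 ± 0.06.

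Downstream of the receptor, a single gene of the lists passed. Of 17 feedback and target genes of the ERK pathway, Dusp5 fell, and the other 16 did not pass. Dusp5, which encodes a nuclear phosphatase that inactivates ERK, had 16.1, 17.3 and 17.4 CPM in controls and 10.7, 10.4 and 10.04 in CreER-positive libraries. The groups were clearly apart and lower in 3 of 3 CreER-positive mice, with a log2 fold change of -0.71 ± 0.07 and an edgeR adjusted p of 0.00224 (0.00219 to 0.0233 on leaving out each library). The median over the 17 genes was 0.07, and 2 genes were higher and 1 lower at an unadjusted edgeR p under 0.05, against 10.6% of all genes in either direction. Groups did not overlap for 6 of the 17, against 15.9% of genes tested. Among these, Spry3 had 29.1, 28.2 and 30.6 CPM in controls and 34.2, 34.7 and 32.4 in CreER-positive libraries. Its log2 fold change was 0.20 ± 0.06 and did not pass (edgeR adjusted p = 0.222). The 1 call in 17 stands beside 0.726% of all genes tested. The list was written with earlier results of these data known, so nothing is read from these counts. Etv5, an ERK-responsive transcription factor gene (0.19), passed only without CreER-positive replicate 3 (edgeR adjusted p = 0.0311) among the settings run; it is named because of that change. That fit called 568 genes in all, against 160 with every library.

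Among 26 adaptors and relay proteins of ALK signalling, 0 passed by edgeR, DESeq2 or limma-voom, and 3 were higher and 1 lower at an unadjusted edgeR p under 0.05, which 10.6% of all genes tested had. The smallest unadjusted p belonged to the adaptor gene Shc3 (log2 fold change 0.34, edgeR adjusted p = 0.368) and the kinase gene Braf (-0.12, 0.438). The median was 0.05. Stat3, which encodes a transcription factor that ALK activates as a protein, had 250, 254 and 257 CPM in controls. In CreER-positive libraries Stat3 had 301, 315 and 250 CPM. The estimate of 0.19 (edgeR adjusted p = 0.489) became 0.28 (0.0166) without CreER-positive replicate 3; Stat3 is named because of that change. Without that library edgeR called 568 genes in all, against 160 with it. Among the 5 relatives of the ligand and receptors, 4 were tested and 0 passed by any of the 3 tools, with 1 lower at an unadjusted edgeR p under 0.05, the insulin receptor-related gene Insrr (-0.23, adjusted p = 0.459). Igf1r had -0.04 (0.888). The median over these 4 was -0.01, and Ros1 was too low to test.

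Other binding partners of pleiotrophin and midkine showed no call. Of 11 tested, 0 passed by edgeR, DESeq2 or limma-voom and 0 had an unadjusted edgeR p under 0.05, and the estimates ran from -0.07 to 0.12 around a median of 0.03. The smallest p values were those of the integrin gene Itga6 (0.08, edgeR adjusted p = 0.705) and the co-receptor gene Nrp1 (0.07, 0.748). Of 11 relatives, ligands and substrates of Ptprz1, 0 passed by edgeR or limma-voom. At an unadjusted edgeR p under 0.05, 2 were lower, against 10.6% of all genes tested in either direction. The scaffold gene Magi3 had 363, 363 and 338 CPM in controls and 306, 284 and 245 in CreER-positive libraries (-0.35 ± 0.08, edgeR adjusted p = 0.136), without overlap. DESeq2 called it (0.00473), as did edgeR without CreER-positive replicate 3 (0.0406). Over all genes these settings called 425 and 568, against 160 by edgeR with all libraries. The kinase gene Fyn had -0.15 (0.273), and the list's median was 0.00.

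The enzymes that build and edit heparan sulfate, the sugar that syndecans carry, showed no call. Of 30 genes, 22 had an estimate above 0, against 11199 of the 22043 genes tested. The median was 0.08, and 0 passed by edgeR or limma-voom. At an unadjusted edgeR p under 0.05, 4 of the 30 were higher and 0 lower. Over all 22043 genes tested, 1113 were higher and 1217 lower at that p, 10.6% together. Hs3st6, a 3-O-sulfotransferase gene, had 1.57, 1.79 and 2.10 CPM in controls and 2.90, 3.52 and 2.91 in CreER-positive libraries. It was low in level but apart between groups (0.76 ± 0.15, edgeR adjusted p = 0.0678). DESeq2 called it (0.00651), and edgeR did so without CreER-positive replicate 3 (0.0379). Over all genes these settings called 425 and 568, against 160 by edgeR with all libraries. Hs6st1, a 6-O-sulfotransferase gene, had 0.24 (0.221), and passed without the same library (0.0208).

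Of 10 glypicans and other heparan sulfate proteoglycans, 0 passed by edgeR or limma-voom, and the median was 0.13. At an unadjusted edgeR p under 0.05, 1 was higher and 1 lower, against 10.6% of all genes tested in either direction. The glypican gene Gpc5 had 18.6, 18.5 and 17.3 CPM in controls and 27.0, 21.5 and 23.4 in CreER-positive libraries (0.40 ± 0.09, edgeR adjusted p = 0.0895). These did not overlap; DESeq2 called it (0.00423), and edgeR did so without CreER-positive replicate 2 (0.0443). Over all genes these settings called 425 and 143, against 160 by edgeR with all libraries. Agrn, agrin, had -0.18 (0.280).

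Of 13 cytoplasmic partners and sheddases of syndecans, 0 passed by edgeR or limma-voom, and the median was 0.00. At an unadjusted edgeR p under 0.05, 1 was higher and 2 lower, against 10.6% of all genes tested in either direction. Sdcbp, which encodes syntenin, the PDZ adaptor of the syndecan tail, had 919, 833 and 820 CPM in controls and 690, 643 and 673 in CreER-positive libraries. All CreER-positive values were below all controls (-0.36 ± 0.08, edgeR adjusted p = 0.0922). It passed by DESeq2 (2.08e-05), and by edgeR with total counts alone (0.0482), with no count filter (0.0444) and without CreER-positive replicate 3 (0.0256). Over all genes these settings called 425, 187, 158 and 568, against 160 in the edgeR fit described above. Prkca, protein kinase C alpha, which binds the Sdc4 tail, had -0.29 (0.234) and passed by DESeq2 (0.0312).

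**Figure D5:**
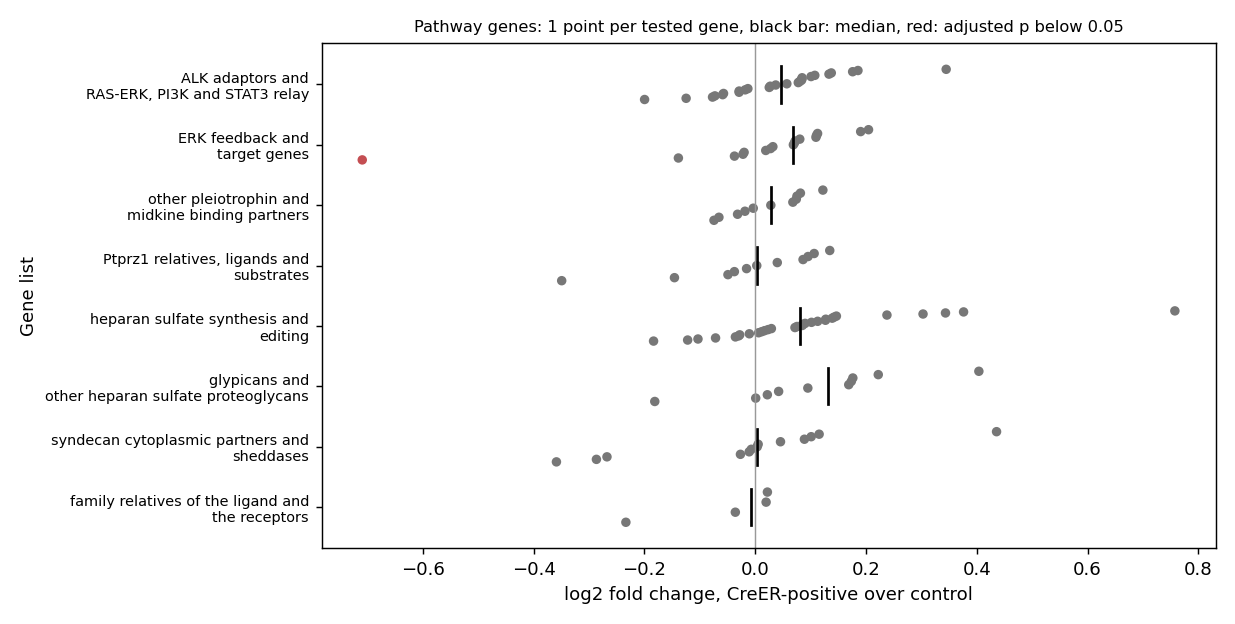
Log2 fold change of CreER-positive over control (horizontal axis) for the tested genes of the 8 pathway lists, 1 point per gene, with each list's median as a black bar. The single red point, Dusp5 at -0.71, is the gene with an adjusted edgeR p below 0.05, and the list medians lie between -0.01 and 0.13.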

How the data were processed

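RNA of 6 lumbar ganglia per mouse was sequenced, 3 mice per group. The 10 genes and all lists were chosen with earlier results of these data known. The aligner GSNAP and the build GRCm38 (mm10) are named per the submitters' processing notes. How reads were counted, on which annotation and strand, is not given in the sources used here. The authors deposited raw counts, a gene width and RPKM per NCBI gene. For 77.7% of matched genes the width is within 5% of the full span, introns included. The authors' deposited RPKM was used only for levels per length; the alternative divided CPM by GENCODE M21 exon length.

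Identifiers were matched to GRCm38.p6 symbols (31049 of 36528). Counts were filtered with filterByExpr (22043 left), TMM-scaled and tested with edgeR 4.0.16 (quasi-likelihood, R 4.3.3), with Benjamini-Hochberg adjustment at 0.05 over all genes; the standard error is the log2 fold change divided by the square root of F. Libraries were grouped by genotype label, and replicates were numbered in accession order. No pair of replicates looked like copies. Chi-square per degree of freedom was 5.64 to 8.40 for control pairs and 32.8 to 40.7 for CreER-positive pairs. CreER-positive replicates thus differed more from each other than controls did. The edgeR step was run on simulated counts with the same variation between mice for all genes and in both groups. The real groups differed in this, so the simulation does not show how the test performs on them. Alternatives were other scalings and filters, DESeq2 1.42.0, limma-voom (3.58.1), legacy settings and left-out libraries. Named genes were the 10, overlapping genes, list genes that passed or else the 2 with the smallest p, and the 5 most alike. Markers were to be named if near 0 or if they passed. Jchain met neither condition and was named all the same. Cdh1, Stat3, Etv5 and Spry3 were chosen after their values were seen. Figures used matplotlib 3.10.9.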

Additional observations from a re-analysis of the deposited data

How the results depend on the processing

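The count of genes that passed (160) became 425 with DESeq2 and 60 to 568 on leaving out each library: 71, 60 and 73 without control replicates 1, 2 and 3, and 568 without CreER-positive replicate 3. It was 108 without control replicate 2 and CreER-positive replicate 3, of which 81 were among the 160. Alkal2 passed in all 14 alternatives and Sdc1 in 13, so the count of the 10 genes ranged from 1 to 2. Both genes were selected on these same counts, so this is a description and not support for the difference.

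With DESeq2, 1 gene of the Ptprz1 list, 1 heparan sulfate enzyme, 1 glypican and 2 syndecan partners passed, against 0 of each. With total counts alone and with no count filter, 1 syndecan partner passed. On leaving out each library the range was 0 to 1 for the ALK relay, Ptprz1, glypican and syndecan partner lists, 0 to 2 for heparan sulfate enzymes and 1 to 2 for ERK targets. It was 0 to 0 for the binding partners and the relatives. The cause of these changes was not tested. Igf1r changed sign without CreER-positive replicate 2 (0.0031, against -0.04 with all libraries and -0.076 at the lowest). The log2 fold changes of Ptn, Mdk, Ptprz1 and Sdc2 were below 0 without CreER-positive replicate 3.

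No paired analysis was possible because the labels give no number or litter that pairs the animals. With 3 mice per group, the spread between mice and, for genes such as Ltk, low counts limit precision.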
